A study of Mus musculus with 3 samples.

Results

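The genes described here are the molecular chaperones of mouse T-helper 1 (Th1) cells: the heat shock protein families, the DNAJ co-chaperones and the CCT chaperonin. Members were taken by symbol, as protein-coding genes beginning with Hsp90, Hspa, Hspb, Hspd1, Hspe1, Hsph1, Dnaja, Dnajb or Dnajc, together with Tcp1 and Cct2 to Cct8. This gave 83 of the 50600 genes in the tables. Cct6a was kept under the CCT clause although the GENCODE release used for names types it as a processed transcript. The rule itself uses no expression value. Hspbp1, Hspbap1 and Hspb11 share the Hspb letters but belong to other protein families.

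RNA was measured in 3 libraries, numbered as biological replicates 1, 2 and 3 of 1 group of untransformed Th1 cells from C57BL/6NJ mice. No treatment, genotype or known age is given, and there is no second group, so the only comparisons are between genes within a library and between replicates. Each library has a biosample of its own and all share 1 donor entry, and nothing says whether separate animals were used. P-values therefore measure only the spread between these samples, which may be technical. The file headers add a 2-hour time point that the labels do not explain. The assay is labelled total RNA-seq, yet the linked library protocol is for poly(A)+ RNA.

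Chaperones bind unfolded or partly folded proteins and help them reach their shape. HSP70 proteins hold short exposed stretches of a client in a cycle of ATP hydrolysis, which DNAJ proteins start through their J domain and which HSP110 proteins help to reset by exchanging nucleotide. HSP90 acts later, on kinases and receptors that are nearly folded, while CCT is a closed double ring that folds actin and tubulin among others. The factor HSF1 induces many of these genes under stress through heat shock elements, which are inverted repeats of the unit GAA in their promoters.

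Total counts were 4442901, 3123869 and 2950658 in replicates 1, 2 and 3. Each gene was classed by the files' own coordinates: opposed where its exons overlap those of an opposite-strand gene, unopposed where nothing on the opposite strand meets its span, and between otherwise. Opposed genes took 55.1%, 69.1% and 67.3% of counts in replicates 1, 2 and 3, and unopposed genes 38.7%, 25.6% and 27.8%, so replicate 1 stands apart from the others in this respect. In the mitochondrial genome, mt-Nd6, which lies on the strand opposite to the other 12 messenger RNAs, had 31858, 22709 and 31808 counts, against 38231, 22189 and 12885 for those 12 together. The strand setting of the counting may therefore be the opposite of the libraries' own, which was not tested. Under an opposite setting a pair of reads would be counted for the gene on the other strand. Any level of an opposed member given here could then hold reads of the gene opposite it. Levels of unopposed members would rest only on pairs from the wrong strand and could not be read as levels of their messenger RNA. All levels below hold only under the setting used. Of 10 T cell markers 10 reached 1 TPM (counts per exon base, scaled to the same sum in every library) in every library, with summed levels of 1772 to 4049 TPM. B cell markers summed to 27.0 to 48.7 TPM with 4 of 5 at 0, macrophage and neutrophil markers to 137 to 181 TPM with 3 of 7 at 0, most of it in the opposed gene Csf1r. The sums were 7.06 to 8.09 TPM for dendritic cells, up to 0.583 for NK cells, 2.09 to 6.62 for erythroid cells and 3.97 to 10.7 for CD8. Of the Th1 markers 3 of 5 reached 1 TPM in every library, with Tbx21 at 2.53 ± 0.997 TPM (SD, n = 3) and Ifng at 1, 2 and 0 counts. The part of other cells in the chaperone levels was not tested, and more cells of a type cannot be told apart from more RNA per cell.

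The sequences that bear most on how the chaperone counts can be read are those of the stress-inducible HSP70 pair Hspa1a and Hspa1b, which lie side by side on chromosome 17. Their longest open reading frames, of 1926 and 1929 bases in the GENCODE transcripts, are 99.5% identical, with 10 differing columns in the alignment. Bases 101 to 220 of each frame, counted from the first base of the start codon, are shown as an example. They hold 1 difference, which stands in capitals at position 156.
Hspa1a: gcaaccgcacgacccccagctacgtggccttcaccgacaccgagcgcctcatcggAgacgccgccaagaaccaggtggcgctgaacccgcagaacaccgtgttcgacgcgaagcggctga
Hspa1b: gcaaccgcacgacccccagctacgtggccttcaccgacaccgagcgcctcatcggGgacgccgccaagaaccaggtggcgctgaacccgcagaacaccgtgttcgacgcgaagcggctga
Pieces of this kind cannot be placed on 1 gene when a read misses the difference. Of all 50-base words in the exons, 62.3% of those of Hspa1b and 60.3% of those of Hspa1a also occur in another gene, nearly all in the other member of the pair. The neighbouring Hspa1l, a testis form, is 83.2% identical to Hspa1a over the same frame. The counting command holds no option to count reads that map to several places, so the counts of Hspa1a and Hspa1b are uncertain.

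The heat shock element was searched in RefSeq promoter windows (GRCm38.p6, 250 bases before to 50 after a start) as 3 alternating units of GAA or TTC with 2 bases between neighbours, on both strands. Of 68 members with a window, 4 held it (5.88%), against 179 of 27025 genes with a window (0.662%). No window was given for 15 members, Hsp90aa1 and Hspa8 among them. Elements with an imperfect unit, with other spacing or outside the window were not searched. A member without a match may therefore still hold an element. The matches are printed with the motif in capitals because 1 of them is shared by a pair of genes that also share exon bases, Hspd1 and Hspe1. In the direction of Hspe1 it lies at chr1:55088053-55088082, plus strand, and its 18 motif bases hold 2 overlapping matches. The motif begins 89 bases before the RefSeq start of Hspe1 and, read on the minus strand, 144 bases before that of Hspd1. The gene model used for counting Hspd1 reaches further, to 55088243, so the motif lies within that span. The Dnajb6 match lies at chr5:29735846-29735870 on the plus strand and the Hsph1 match at chr5:149636282-149636306 on the minus strand, after the start.
Hspe1: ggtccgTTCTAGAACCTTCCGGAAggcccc
Hspd1: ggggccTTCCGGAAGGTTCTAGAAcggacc
Dnajb6: ctccgaGAATCTTCCGGAAcgctag
Hsph1: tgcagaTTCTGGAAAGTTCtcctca
A match describes these letters and not the binding of a factor, and the files hold no measure of binding.

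Most chaperone genes had counts under the strand setting used. Levels ran from 2011 TPM for Hsp90ab1 in replicate 1 down to 9 genes with no count. In every library 63 of the 83 members (75.9%) reached 1 TPM, against 38.7% of 21764 protein-coding genes. Their median level was 18.2, 8.98 and 9.56 TPM in replicates 1, 2 and 3, against 0.303, 0.252 and 0.201 for all protein-coding genes. Among 28 opposed members 23 reached 1 TPM and the medians were 20.3, 21.6 and 21.1 TPM (21.0 ± 0.632, SD, n = 3; 11.8 when genes with overlapping spans count as opposed too), where 60.9% of opposed protein-coding genes did so. Among 47 unopposed members 36 reached it and the medians were 18.8, 8.23 and 9.56 TPM (12.2 ± 5.78), where 32.0% of unopposed protein-coding genes did so. The remaining 8 members lie between these classes. Together the members took 1.43% of all counts in replicate 1 (Wilson 95% interval 1.42% to 1.44%), 1.03% in replicate 2 (1.01% to 1.04%) and 1.11% in replicate 3 (1.10% to 1.12%). These intervals cover counting error only. All protein-coding genes took 78.2%, 62.7% and 68.0% of counts in replicates 1, 2 and 3. A lower share in replicates 2 and 3 is thus not particular to the members. Hsp90ab1, Hspa8 and Hspa5 alone held 41.1%, 40.8% and 41.8% of the members' counts.

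**Figure D1:**
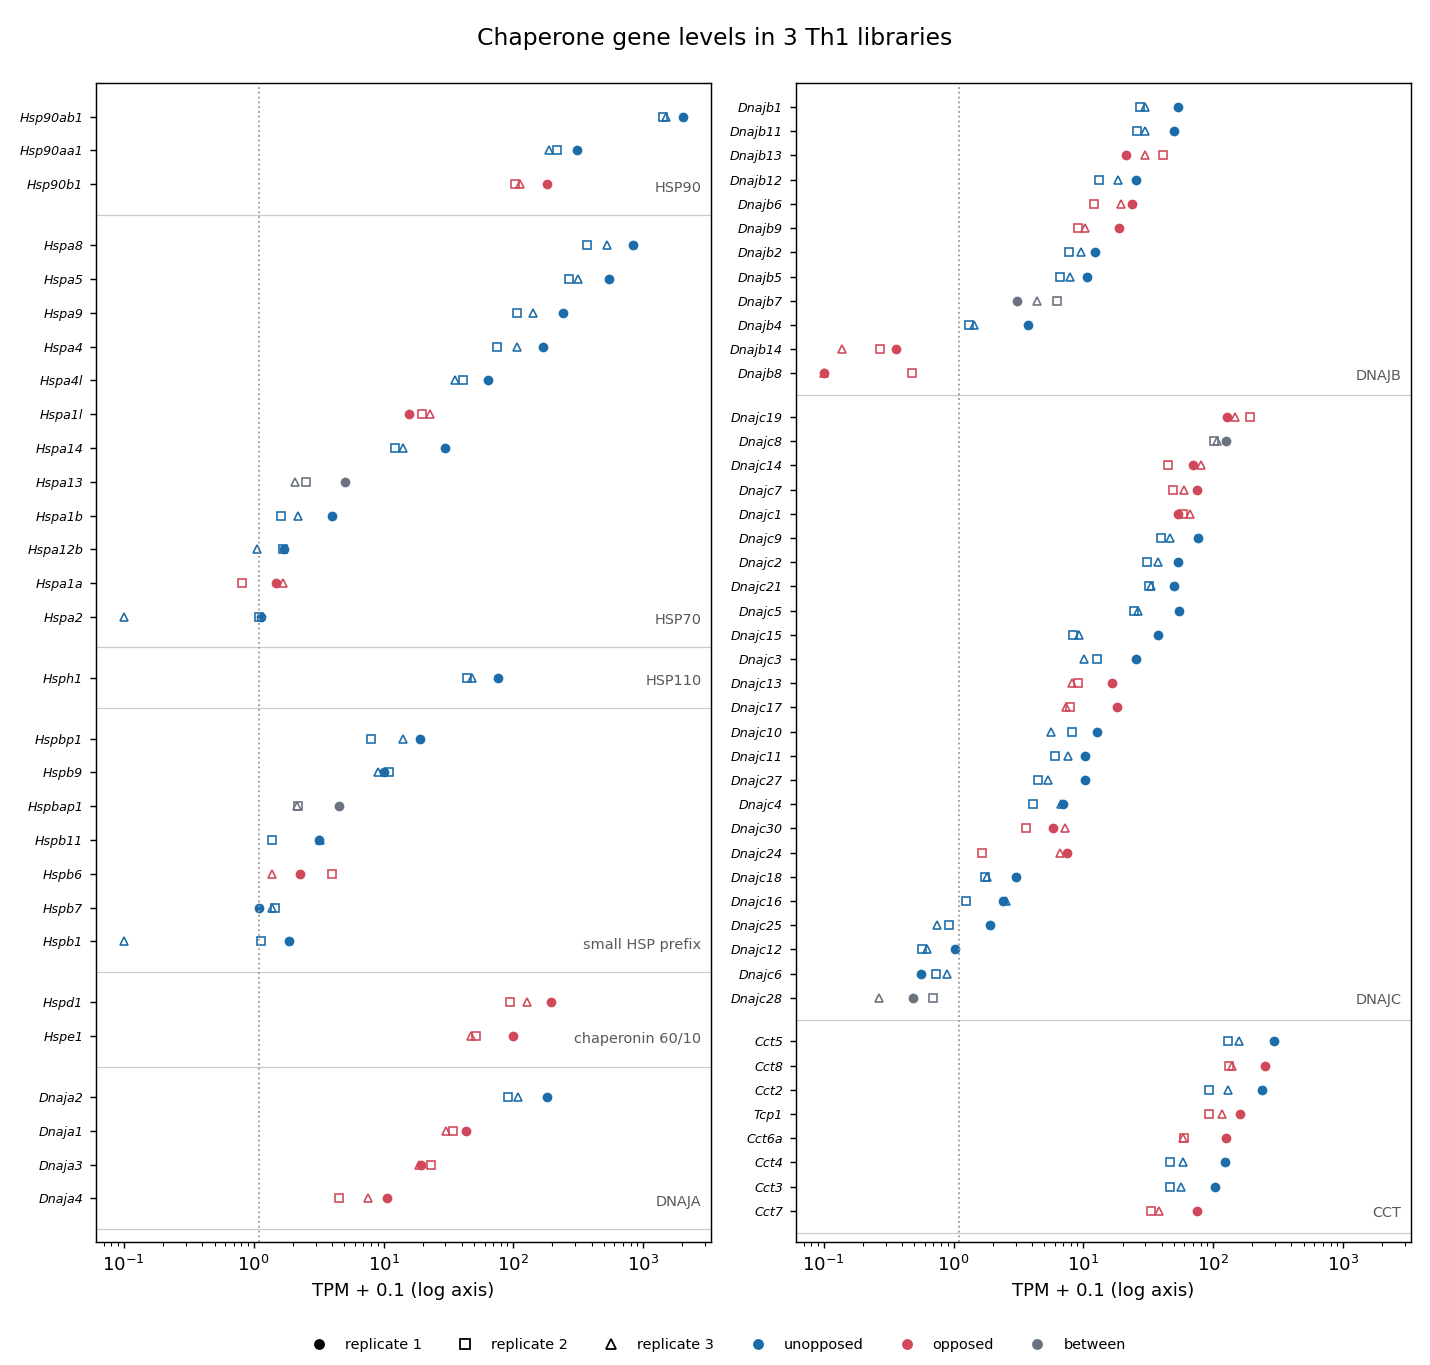
Level of each chaperone gene with at least 1 count, as TPM + 0.1 on a log axis, with 1 symbol per library and colour for strand class; the dotted line marks 1 TPM. Hsp90ab1 is the highest member in all 3 libraries, and the filled circles of replicate 1 lie to the right in most unopposed genes.

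By counts under the strand setting used, HSP90 was led by its constitutive cytosolic form. Hsp90ab1 (chromosome 17, 45567775 to 45573271, mm10) had 13200, 7993 and 7614 counts in replicates 1, 2 and 3, or 2011, 1421 and 1495 TPM. Hsp90aa1, the inducible cytosolic form, had 2667, 1592 and 1264 counts, or 310, 216 and 189 TPM. The log2 ratio of Hsp90aa1 to Hsp90ab1 per exon base was -2.80 ± 0.16 (SD, n = 3), with Hsp90aa1 lower in 3 of 3 libraries. Its counts are also uncertain, since 47.5% of its 50-base words occur in another gene, mainly the pseudogene Gm12346. Hsp90b1, the HSP90 of the endoplasmic reticulum, had 1603, 771 and 772 counts and stood at -3.67 ± 0.17 to Hsp90ab1. It is opposed by 1810014B01Rik over 10.3% of its exon bases, and that gene had 6477, 6528 and 6741 counts. These are 1458, 2090 and 2285 CPM (counts scaled by the library total), lowest in replicate 1, where Hsp90b1 was highest.

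Counts of the HSP70 family, under the strand setting used, lay mostly in constitutive members. Hspa8 (chromosome 9, 40800984 to 40810087), the cytosolic HSC70 that also strips clathrin from vesicles, had 7823, 2950 and 3850 counts, or 831, 366 and 527 TPM. Hspa5 (BiP), the HSP70 of the endoplasmic reticulum (chromosome 2, 34771970 to 34777547), had 5066, 2143 and 2242 counts, or 547, 270 and 312 TPM. Its log2 ratio to Hspa8 was -0.60 ± 0.16 (SD, n = 3). Of the 50-base words of Hspa8, 37.0% occur in another gene, mainly Gm15459, so ratios to it are uncertain. Hspa9, the mitochondrial mortalin, had 2084, 783 and 947 counts and a ratio of -1.82 ± 0.06 to Hspa8. In each of these genes replicate 1 was highest, and the order Hspa8, Hspa5, Hspa9 was the same in the 3 libraries.

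The stress-inducible pair was near the detection limit. Hspa1b (34956436 to 34959238 on chromosome 17) had 24, 8 and 10 counts, and Hspa1a (34969190 to 34972156) had 9, 4 and 8. The levels were 3.91, 1.52 and 2.10 TPM for Hspa1b and 1.39, 0.72 and 1.59 TPM for Hspa1a. Per exon base Hspa1b stood at -7.87 ± 0.12 and Hspa1a at -8.86 ± 0.44 to Hspa8 on the log2 scale (SD, n = 3). The summed counts give ratios of 0.00441 (95% exact binomial interval 0.00317 to 0.00596) and 0.00208 (0.00129 to 0.00318). The shared sequence shown above bears on both values. Hspa1a is also opposed by Gm20481 over 19.0% of its exon bases, with 94, 75 and 130 counts. Hspa1l had 85, 92 and 96 counts and was lowest in replicate 1 at 15.7 TPM, against 19.8 and 22.9. Gm10501 lies opposite 71.9% of its exon bases and had only 3, 2 and 1 counts.

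HSP110-type genes followed. Hspa4, a nucleotide exchange factor of HSP70, had 2062, 770 and 1003 counts (117 ± 48.9 TPM, SD, n = 3). Its relatives Hsph1 (76.3, 43.8 and 47.7 TPM) and Hspa4l (64.1, 40.9 and 35.6 TPM) were lower per exon base in every library, with log2 ratios to Hspa4 of -1.03 ± 0.23 and -1.29 ± 0.38. With coding length in place of exon length the values were -0.66 and -0.19. Hspa14, a ribosome-linked HSP70, had 263, 92 and 97 counts. Hspa12a had no count in any library, which allows up to 0.239, 0.279 and 0.308 TPM at a floor of 3 counts per library.

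The small heat shock proteins, which hold unfolding clients without ATP, were low. Of 10 genes with the Hspb letters 5 reached 1 TPM in every library, and these include Hspbp1, an HSP70 exchange factor (78, 28 and 45 counts), Hspbap1 and Hspb11. Of true small heat shock genes, Hspb9 had 16, 15 and 11 counts and Hspb6 11, 17 and 5. Hspb7 had 6, 7 and 6 counts and Hspb1 (Hsp25) 4, 2 and 0. Hspb2, Hspb3 and Hspb8 had none, which allows up to 2.12, 2.26 and 0.906 TPM in replicate 3, the shallowest library. For Hspb1, 50.1% of 50-base words occur in another gene, mainly the pseudogene Hsp25-ps1.

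The mitochondrial chaperonin genes Hspd1 (HSP60, the ring) and Hspe1 (HSP10, its lid) start head to head on chromosome 1, at 55077835 to 55088243 and 55088132 to 55091307. Hspd1 had 1128, 463 and 566 counts (195, 93.4 and 126 TPM) and Hspe1 318, 141 and 118 (98.6, 51.0 and 47.2 TPM). Hspd1 was higher in 3 of 3 libraries, with a log2 ratio of 1.09 ± 0.29 (SD, n = 3). The sign turned with the length used: per coding base the ratio was -0.56. The pair's exons overlap each other, and 39.7% of the words of Hspd1 and 18.4% of those of Hspe1 occur elsewhere.

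All 4 genes of the DNAJA class, the DNAJ proteins built most like bacterial DnaJ, reached 1 TPM in every library. Dnaja2 had 1177, 507 and 544 counts (126 ± 47.8 TPM, SD, n = 3) and Dnaja1 811, 553 and 439 (35.7 ± 6.62 TPM), with the latter opposed by Smu1. Dnaja2 was higher per exon base in 3 of 3 libraries, with a log2 ratio of 1.78 ± 0.34 that shrank to 0.19 per coding base. Dnaja1 has the longer exon model of the pair. The mitochondrial Dnaja3 had 166, 171 and 124 counts and is opposed by Coro7. Dnaja4 had 83, 30 and 46, with Wdr61 opposite 44.1% of its exon bases at 822, 398 and 601 counts.

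In the DNAJB class 10 of 13 genes reached 1 TPM in every library. Dnajb1, the heat-inducible HSP40, had 375, 162 and 162 counts (36.7 ± 14.6 TPM, SD, n = 3). Its log2 ratio to Dnaja1 per exon base was -0.01 ± 0.33 and took both signs across libraries. The order depends on length: by count alone Dnajb1 was lower in 3 of 3 libraries, with a log2 ratio of -1.44, and per coding base the ratio was -1.22. Dnajb11, a co-chaperone of Hspa5 in the endoplasmic reticulum, had 350, 157 and 162 counts, Dnajb12 187, 83 and 105, and Dnajb2 113, 61 and 69. In TPM replicate 1 was highest in each of these 4 unopposed genes. With edgeR's TMM scaling Dnajb12 (36.2, 29.4 and 38.8 CPM) and Dnajb2 (21.9, 21.6 and 25.5 CPM) were highest in replicate 3. Of the opposed members, Dnajb13, a sperm flagellum protein, was lowest in replicate 1 with 21.2 TPM, against 40.6 and 29.5 (127, 208 and 137 counts). Ucp2 lies opposite it with 312, 95 and 143 counts, highest in replicate 1. Dnajb6, which holds back aggregation, had 312, 136 and 198 counts. Dnajb9, an ER stress gene, had 104, 43 and 44, and Dnajb14 9, 5 and 1. Dnajb3 had no count, which allows up to 1.68 TPM in replicate 3.

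DNAJC genes share only the J domain, and 21 of 28 reached 1 TPM in every library. Among opposed members Dnajc19, a subunit of the mitochondrial import motor, was highest of the class with 1129, 1438 and 1001 counts, or 128, 190 and 146 TPM (chromosome 3, 34056020 to 34081321). It was highest in replicate 2 and lowest in replicate 1. Fxr1 lies opposite with 448, 223 and 185 counts. Dnajc1, a membrane protein of the endoplasmic reticulum, was likewise lowest in replicate 1 (53.6, 58.7 and 66.2 TPM). Dnajc14 had 69.4, 44.5 and 80.6 TPM, and Dnajc7, which also binds HSP90, 74.8, 49.1 and 59.6 TPM. Dnajc8, a splicing-linked protein of the between class named here after its values were seen, had 126, 102 and 107 TPM. The 4 highest unopposed members stood at 35.1 to 53.9 TPM. Dnajc9, a histone chaperone, stood at 53.9 ± 19.4 TPM (SD, n = 3), the ribosome-bound Dnajc2 at 40.3 ± 11.5, Dnajc21, of ribosome assembly, at 38.2 ± 9.88, and Dnajc5, of vesicle release, at 35.1 ± 16.6. In TPM replicate 1 was highest in these 4. With edgeR's TMM scaling Dnajc2 was highest in replicate 3 (113, 102 and 118 CPM) and Dnajc21 was nearly equal in all (100.3, 100.5 and 99.8 CPM). Dnajc5b, Dnajc5g and Dnajc22 had no count, which allows up to 1.09, 0.838 and 0.741 TPM in replicate 1, the deepest library.

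The CCT ring holds 1 copy of each of 8 subunits. All 8 genes had counts, at 33.3 TPM (Cct7 in replicate 2) to 294 TPM (Cct5 in replicate 1). Cct5 (chromosome 15, 31590800 to 31601847) had 1807, 681 and 756 counts, or 194 ± 87.9 TPM (SD, n = 3). Cct8 had 175 ± 66.7 TPM, Cct2 153 ± 75.4, Tcp1 123 ± 34.8 and Cct6a 80.7 ± 37.7. Cct4 had 75.7 ± 41.0 TPM, Cct3 68.9 ± 30.6 and Cct7 48.9 ± 22.8. The gaps between neighbours in this order are smaller than their SD, except that between Tcp1 and Cct6a. In TPM all 8 genes were highest in replicate 1, so the SD is in large part a shift they share on this scale. It is not particular to them: 91.6% of unopposed and 66.1% of opposed protein-coding genes tested were highest there too. With edgeR's TMM scaling Tcp1 was highest in replicate 3 (343, 308 and 366 CPM in replicates 1, 2 and 3), and the other subunits stayed highest in replicate 1. Within the libraries the order was the same in replicates 1 and 3. In replicate 2 Cct8 lay above Cct5, and Tcp1 and Cct2 were nearly equal at 92.3 and 92.2 TPM.

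Within a library the subunits spread 3.91-, 3.97- and 4.13-fold from the highest to the lowest in TPM (4.00 ± 0.111, SD, n = 3), with Cct7 lowest in 3 of 3. The highest was Cct5 in replicates 1 and 3 and Cct8 in replicate 2. The spread depended on length. By count alone (CPM) it was 1.84-, 2.38- and 2.77-fold (2.33 ± 0.468), and per coding base 2.25-fold. Exon lengths of the 8 genes run from 2557 to 6778 bases, with Cct7 and Cct3 longest, while coding lengths run only from 1596 to 1668. The 4 unopposed subunits alone spread 2.81-fold. Tcp1 is opposed by Acat3, which had 5012, 2951 and 5321 counts against 1771, 871 and 991 for Tcp1. Cct6b, the testis copy of Cct6a, had 0 counts against 1747 summed counts of Cct6a, and up to 0.733, 0.855 and 0.944 TPM is allowed in replicates 1, 2 and 3.

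**Figure D2:**
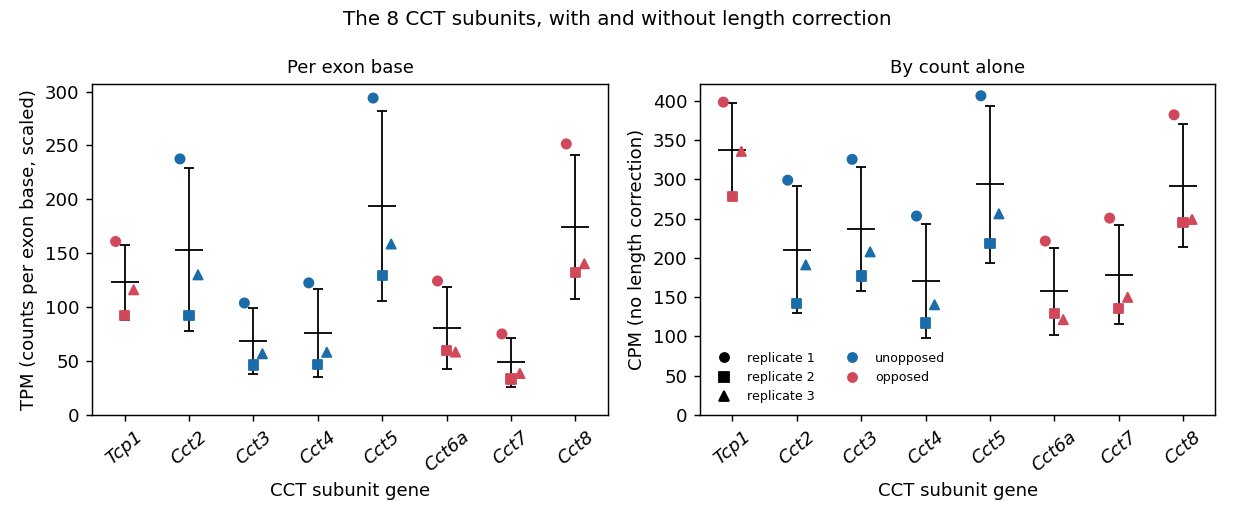
The 8 CCT subunit genes as TPM (left) and as CPM (right), with 1 symbol per library, colour for strand class, a horizontal line at the mean and bars of 1 SD (n = 3). Cct7 is lowest per exon base in every library, and by count alone Tcp1 is highest in replicates 2 and 3.

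Ratios were computed for 11 of 12 pairs of members. Per exon base the sign was the same in 3 of 3 libraries for 10 of them, and by count alone or per coding base for 9. By count alone Dnaja2 lay under Dnaja1 in replicate 2 (507 against 553 counts) and Hspa4l over Hspa4 there (904 against 770), while Dnajb1 against Dnaja1 kept 1 sign. With 3 libraries the exact two-sided sign-flip test cannot go below p = 0.25, which all 10 reached per exon base (Benjamini-Hochberg adjusted 0.275 over the 11 pairs). Dnajb1 against Dnaja1 had exact p = 0.75. None can therefore pass a threshold of 0.05, and the ratios stand as sizes with their SD.

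Between replicates, no chaperone gene was called beyond the spread usual for genes of its level, and few genes of any kind were. Of 57 members tested with edgeR against the trended dispersion, 0 passed an adjusted p of 0.05, where 24 of 9469 genes (0.253%) did. At so low a share among all genes, 0 of 57 does not set the members apart. At an unadjusted p under 0.05 in the edgeR fit there were 2 of 57 members and 610 of all genes. They were Dnajb13 (edgeR adjusted p = 0.584) and Dnajc15 (edgeR adjusted p = 0.728). The test left Dnajb13 uncalled at 24.6, 73.6 and 50.7 TMM-scaled CPM in replicates 1, 2 and 3, so large differences can pass it. DESeq2's distance measure for outlying counts called 0 of 74 members. It also called 0 of all 19067 genes, so its result says nothing about the members. Dnajc15, a mitochondrial import protein named here after its values were seen, had 53, 10 and 10 counts, or 37.4, 8.23 and 9.09 TPM. Against counting noise alone 37 of 57 members differed between the libraries, and 59.6% of all genes tested did, so the members' share is near the background. Calls covered 8 of 8 CCT genes, 3 of 3 HSP90 genes, 7 of 8 HSP70, 3 of 4 DNAJA, 4 of 9 DNAJB and 10 of 19 DNAJC. They covered both chaperonin genes, Hsph1 not at all and 0 of 3 genes with the Hspb letters. This test finds smaller differences where counts are higher. Summed counts ran from 1747 to 3633 in the 8 CCT genes and from 42 to 151 in the 3 genes with the Hspb letters. Hsph1 had 2400 and was not called. No share at matched counts was computed, so the calls do not rank the classes by their spread. Without replicate 1, 16 of 57 members (28.1%) were called, where 25.6% of all 9677 genes tested were. With TMM factors from unopposed genes 28 of 57 members (49.1%) were called, beside 53.6% of all genes.

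Replicate 1 was set against the others. TPM was highest in replicate 1 for 31 of 33 unopposed members tested, with Hspb9 and Dnajc16 the exceptions, and the median log2 difference from the mean of replicates 2 and 3 was 0.86. Unopposed protein-coding genes gave nearly the same values, with 91.6% highest in replicate 1 and a median of 0.84. Among opposed members 14 of 21 were highest there (median 0.63), beside 66.1% of opposed protein-coding genes (0.53). Dnajb13, Hspa1l, Dnajc19 and Dnajc1 were lowest there. The scale sets the direction. With TPM computed over unopposed genes only, 17 of 33 unopposed members were highest in replicate 1 (median 0.08) and 6 of 21 opposed ones (-0.15), beside 39.0% and 20.7% of protein-coding genes of these classes. With edgeR's TMM scaling the numbers were 22 of 33 (0.26) and 9 of 21 (0.02), beside 59.6% and 34.6%. The larger share of counts on unopposed genes in replicate 1 was given above.

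**Figure D3:**
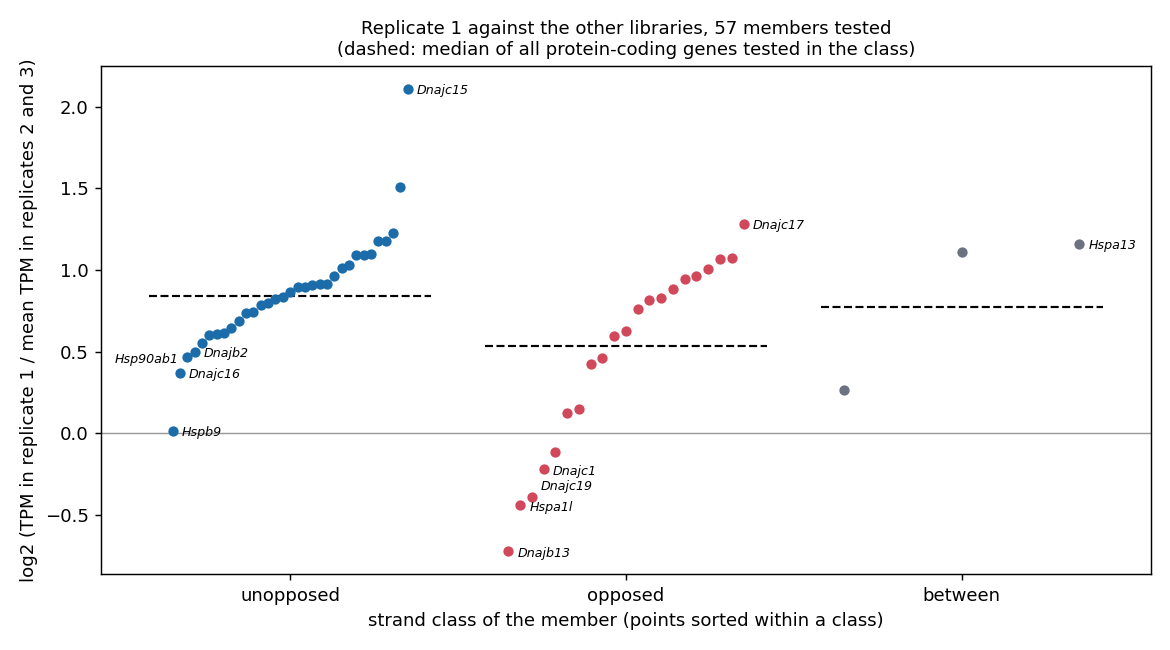
log2 of TPM in replicate 1 over the mean TPM of replicates 2 and 3 for the 57 members tested, sorted within each strand class; dashed lines are the medians of all protein-coding genes tested in the class. Unopposed members centre on their dashed line, and 4 of the opposed members with the lowest values carry names, from Dnajb13 at -0.72 upward.

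Opposed members were also set against the gene on the other strand. In 24 of them the pair had at least 30 summed counts, and the member had more counts per exon base in 12 (50%), against 36.4% of 3485 opposed protein-coding genes. Hspd1 and Hspe1 oppose each other and enter once from each side. The opposite gene's counts per exon base, divided by the member's, ran from 0 (Dnajb9 and Dnajc24) to 74.9 (Hspa1a). The next lowest quotients were those of Hspa1l (0.0247), Hspb6 (0.103), Dnajc19 (0.147) and Cct8 (0.177, opposite Usp16). The next highest were those of Dnajc30 (11.7), Hsp90b1 (9.54), Dnaja4 (8.80) and Tcp1 (7.84). Which side is higher rests on the strand setting. Where exons overlap, reads are told apart by strand alone, and the overlap ranges from 0.549% of exon bases in Dnajb9 and 6.22% in Cct8 to 71.9% in Hspa1l.

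**Figure D4:**
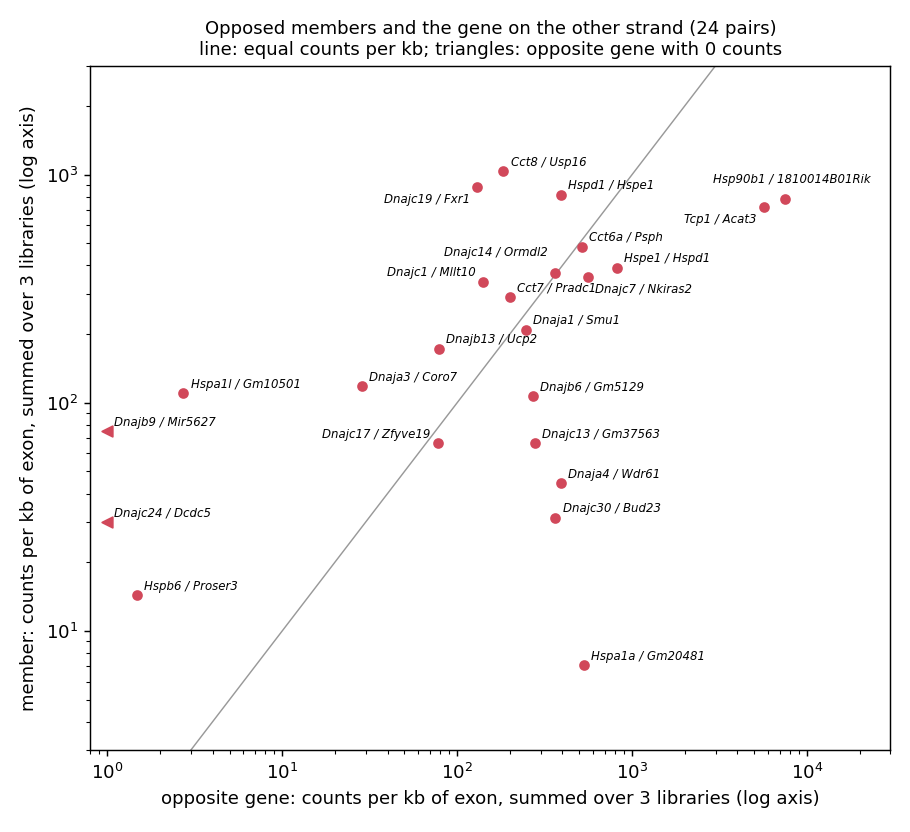
Counts per kb of exon, summed over 3 libraries, of each opposed member (vertical) and of the gene opposite it (horizontal), both on log axes, with a line at equality. Of the 24 pairs 12 lie above the line, and triangles mark opposite genes with 0 counts.

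Partners of the chaperones had counts as well under the strand setting used. Of 5 heat shock factors 1 reached 1 TPM in every library: Hsf1, the main stress factor, had 333, 121 and 184 counts (53.7 ± 21.7 TPM, SD, n = 3), and Hsf2 stood at 1.37 ± 0.553 TPM. All 15 HSP90 co-chaperones reached 1 TPM, led by Ahsa2 (480 ± 50.7 TPM, opposed) and by Stip1, which links HSP70 to HSP90 (230 ± 33.2 TPM, unopposed). Of 13 HSP70 partners 11 did, with the exchange factor Bag1 at 155 ± 39.3 TPM and St13 at 89.4 ± 16.6. All 9 prefoldin and CCT partners did, with Pfdn5, a prefoldin subunit that hands actin and tubulin to CCT, at 115 ± 47.6 TPM. Of 9 other chaperones of the endoplasmic reticulum 8 did, with the lectin chaperone Calr at 328 ± 101 TPM, while Sdf2l1 had 21, 1 and 10 counts. All 6 other mitochondrial chaperones and proteases did, with Htra2 at 337 ± 60.4 TPM (opposed) and Lonp1 at 50.1 ± 6.76. In these 6 lists no gene passed the edgeR trend test at an adjusted p of 0.05, which only 0.253% of all genes tested passed.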

How the data were processed

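Per the file headers, the authors counted read pairs over exons with featureCounts 1.4.6-p4, GENCODE vM13 models and mm10, with both reads aligned, strand setting 1 and no option for multi-mapping reads. The deposited tables hold these raw counts and each gene's exon length. From these, TPM and CPM were computed here over 50600 genes, of which 50376 (99.56%) were named through GENCODE vM21. Spread between libraries was tested with edgeR 4.0.16 (R 4.3.3): TMM scaling, a minimum count of 10 in filterByExpr, an intercept-only fit, and the deviance at the trended dispersion against chi-square with 2 degrees of freedom. Counting noise was tested by a chi-square test. Both used Benjamini-Hochberg adjustment over 9469 genes. Only the edgeR test was checked on simulated counts. DESeq2 1.42.0 was the alternative. Replicates were taken from the labels.

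The members and lists were chosen with earlier results of these data known. Genes named are all members of classes of up to 9, the 4 highest opposed and unopposed members of larger classes, members at 0, members of a pair, and the genes opposite named members. Hspa14, Hspb1, Hspbap1, Dnajc8, Dnajc15, Dnajc16, Dnajc24 and Dnajc30 were named outside that rule after their values were seen. Protein features were not analysed here.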

Additional observations from a re-analysis of the deposited data

How the results depend on the processing

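The members beyond the trend stayed at 0 under every alternative run, though the DESeq2 measure called no gene at all and so is no check. The other runs called few genes of any kind, from 3 of 10139 without replicate 2 to 56 of 4407 with only unopposed genes. Members at 1 TPM stayed between 59 and 69 (63 as reported). Members beyond counting noise ranged from 16 to 30 with 1 library left out, against 37. The share of all genes called was then 25.6% without replicate 1, 42.4% without replicate 2 and 47.3% without replicate 3, against 59.6%. With TMM factors from unopposed genes 28 of 57 members (49.1%) were called, beside 53.6% of all genes. With only unopposed genes tested, 14 of 33 members (42.4%) were called, beside 35.9% of all. The median of unopposed members (12.2 TPM) was 27.3 as CPM, 58.6 over unopposed genes only, 31.9 over nuclear protein-coding genes and 6.48 as TMM-scaled counts per kb. That of opposed members (21.0 TPM) was 49.3, 112 and 59.0, and 12.0 as TMM-scaled counts per kb and 11.8 with genes opposed by whole spans. The first 3 settings change what the values are scaled to. Pairs of 1 sign in every library numbered 10, and 9 under CPM or coding length and 11 without replicate 1. The CCT spread (4.00-fold) was 2.33 as CPM, 2.81 for unopposed subunits and 2.25 by coding length. With at least 50% of a member's exon bases opposed, 1 pair was left and its member was higher (1 of 1). Hspd1 to Hspe1 turned to -0.56 by coding length. With 1 library left out Dnajb1 to Dnaja1 ranged from -0.18 (without replicate 1) to 0.15 (without replicate 2). That pair stood at -1.44 under CPM and -1.22 by coding length. Of the single pairs' other alternatives 56 stayed within 1 SD and 19 moved further with their sign kept, all under CPM or coding length. Coding length, TMM factors from unopposed genes and the set without Hspbp1, Hspbap1, Hspb11 and Cct6a were chosen after seeing the data. No paired analysis was possible because there is 1 group. Depth limits low members: the floor of 3 counts equals 0.675 CPM in replicate 1, 0.96 in replicate 2 and 1.02 in replicate 3.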
